A study of Arabidopsis thaliana with 12 samples.

Results

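Clade A of the type 2C protein phosphatases (PP2Cs) of Arabidopsis thaliana has 9 members here, ABI1 (AT4G26080), ABI2 (AT5G57050), HAB1 (AT1G72770), HAB2 (AT1G17550), AHG1 (AT5G51760), AHG3 (AT3G11410), HAI1 (AT5G59220), HAI2 (AT1G07430) and HAI3 (AT2G29380), chosen by their locus identifiers from the 24616 gene rows of the deposited table. All 9 had a row, and 7 passed the filter on low values used for testing. The libraries came from 14-day-old seedlings grown at 22 °C in long days on half-strength MS medium. There were 6 groups of 2 libraries, cbfs-1 mutant and wild type (Col) after 0 h, 3 h and 24 h at 4 °C. The line cbfs-1 is named after the CBF genes, which encode cold-induced transcription factors, and its lesion is not described in the sources used here. Nothing in the labels tells whether the 2 replicates of a group were grown separately, so the p-values measure a spread between libraries whose source is not known.

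Clade A PP2Cs are the negative regulators at the centre of abscisic acid signalling. Without the hormone they hold SnRK2 kinases inactive by dephosphorylating them. When abscisic acid binds a PYR/PYL receptor, the receptor blocks the phosphatase, the kinases become active and ABF transcription factors are phosphorylated. Abscisic acid itself raises transcripts of many clade A genes, which makes the family part of a negative feedback on the pathway, and the hormone is best known in seedlings for responses to water deficit and, in part, to cold.

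The recovered reads, gene counts regained from the normalized values, totalled 16849042 to 22800552 per library. Before cold CBF3 stood at 175 and 138 in cbfs-1 against 15.3 and 7.60 in wild type, and after 3 h it stood at 1158 and 1095 in cbfs-1 against 6133 and 7126 in wild type. CBF1 and CBF2 transcripts were present in cbfs-1 in the cold, and the 3 genes are close paralogs whose reads may be divided wrongly. The leaf markers RBCS1A and LHCB1.3 summed to 569135 to 687555 in every library, and the 4 seed markers OLEO1, CRC, EM1 and EM6 summed to at most 24.1. Seedlings held at 22 °C were not analysed here at 3 h or 24 h. At 3 h cold and time of day therefore cannot be told apart. At 24 h, nominally a full day after 0 h, cold and elapsed time cannot be told apart.

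The 250 bases before the annotated starts of the 4 genes with the largest cold changes are shown because their upstream sequences differed in content. They were read from the RefSeq genome and annotation of TAIR10.1, a build whose coordinates were not combined with the authors' files. Capitals mark ACGTG, the core of the abscisic acid response element, CCGAC, the core of the element bound by CBF factors, and AAAATATCT, the evening element of clock-controlled genes, each searched on both strands.
ABI1 (chr4:13222377-13222626, minus strand): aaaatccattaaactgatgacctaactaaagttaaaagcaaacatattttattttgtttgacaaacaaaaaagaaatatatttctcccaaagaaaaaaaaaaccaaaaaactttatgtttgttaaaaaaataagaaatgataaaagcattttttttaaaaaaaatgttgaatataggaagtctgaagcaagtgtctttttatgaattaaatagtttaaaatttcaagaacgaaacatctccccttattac
ABI2 (chr5:23086872-23087121, plus strand): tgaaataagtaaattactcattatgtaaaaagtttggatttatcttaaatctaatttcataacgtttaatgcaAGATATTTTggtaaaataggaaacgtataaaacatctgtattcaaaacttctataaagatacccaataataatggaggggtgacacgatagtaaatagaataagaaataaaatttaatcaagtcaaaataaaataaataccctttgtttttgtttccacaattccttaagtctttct
HAI1 (chr5:23896940-23897189, minus strand): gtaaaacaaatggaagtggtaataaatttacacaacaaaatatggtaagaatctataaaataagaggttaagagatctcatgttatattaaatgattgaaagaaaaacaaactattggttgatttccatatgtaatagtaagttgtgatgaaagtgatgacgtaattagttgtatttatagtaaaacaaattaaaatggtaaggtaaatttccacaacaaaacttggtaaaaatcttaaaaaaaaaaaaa
HAI2 (chr1:2282829-2283078, minus strand): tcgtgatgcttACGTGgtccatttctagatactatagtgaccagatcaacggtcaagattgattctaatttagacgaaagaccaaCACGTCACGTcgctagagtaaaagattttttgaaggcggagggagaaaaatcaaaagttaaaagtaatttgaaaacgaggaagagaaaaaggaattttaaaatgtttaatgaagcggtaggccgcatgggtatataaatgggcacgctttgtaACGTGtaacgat
The ABI1 and HAI1 windows held none of the 3 motifs. The ABI2 window held the evening element 177 bases before the start, a motif present in 2.47% of 23350 promoter windows of the same length. The HAI2 window held ACGTG at 4 positions, 239, 165, 160 and 12 bases before the start. Over the family 6 of 9 windows held ACGTG, against 23.9% of all windows, and 2 of 9 held CCGAC (AHG1 and AHG3), against 12.4%. The AHG3 window held 5 matches to ACGTG, of which a pair came from 1 palindrome, and HAB1, HAB2, AHG1 and HAI3 held 1 or 2 positions each. A match is a description of the letters and not evidence of binding.

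Levels spanned a wide range within the family. Values are read counts divided by 1 size factor per library, and levels between genes are compared after division by the summed exon length in kilobases. On that per-length scale the median over 12 libraries was 1165 for ABI1, 709 for AHG3, 347 for HAB1, 315 for HAB2, 211 for ABI2, 45.4 for HAI1 and 35.2 for HAI2. HAI3 and AHG1 had medians of 1.55 and 0.690 on the per-length scale. Within single libraries ABI1 lay above AHG3 in 11 of 12, AHG3 above HAB1 in 12 of 12, HAB2 above ABI2 in 11 of 12, and ABI2 above HAI1 in 12 of 12. HAB1 lay above HAB2 in 8 of 12 libraries and HAI1 above HAI2 in 5 of 12, so the order within these pairs did not hold across libraries.

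AHG1, a phosphatase gene best known from seeds, was at the edge of detection. It collected 22 reads over all 12 libraries, at most 4 in any library, and was listed at 0 in both cbfs-1 libraries at 24 h. HAI3 collected 43 reads, with a highest value of 11.6 in wild type 24 h replicate 1 and 0 in wild type 24 h replicate 2. A floor of 3 reads corresponds to normalized values of 2.46 to 3.28, so no fold is given for either gene. Neither gene reached 10 in 2 libraries, the minimum for testing, and no change was detectable at this depth.

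**Figure D1:**
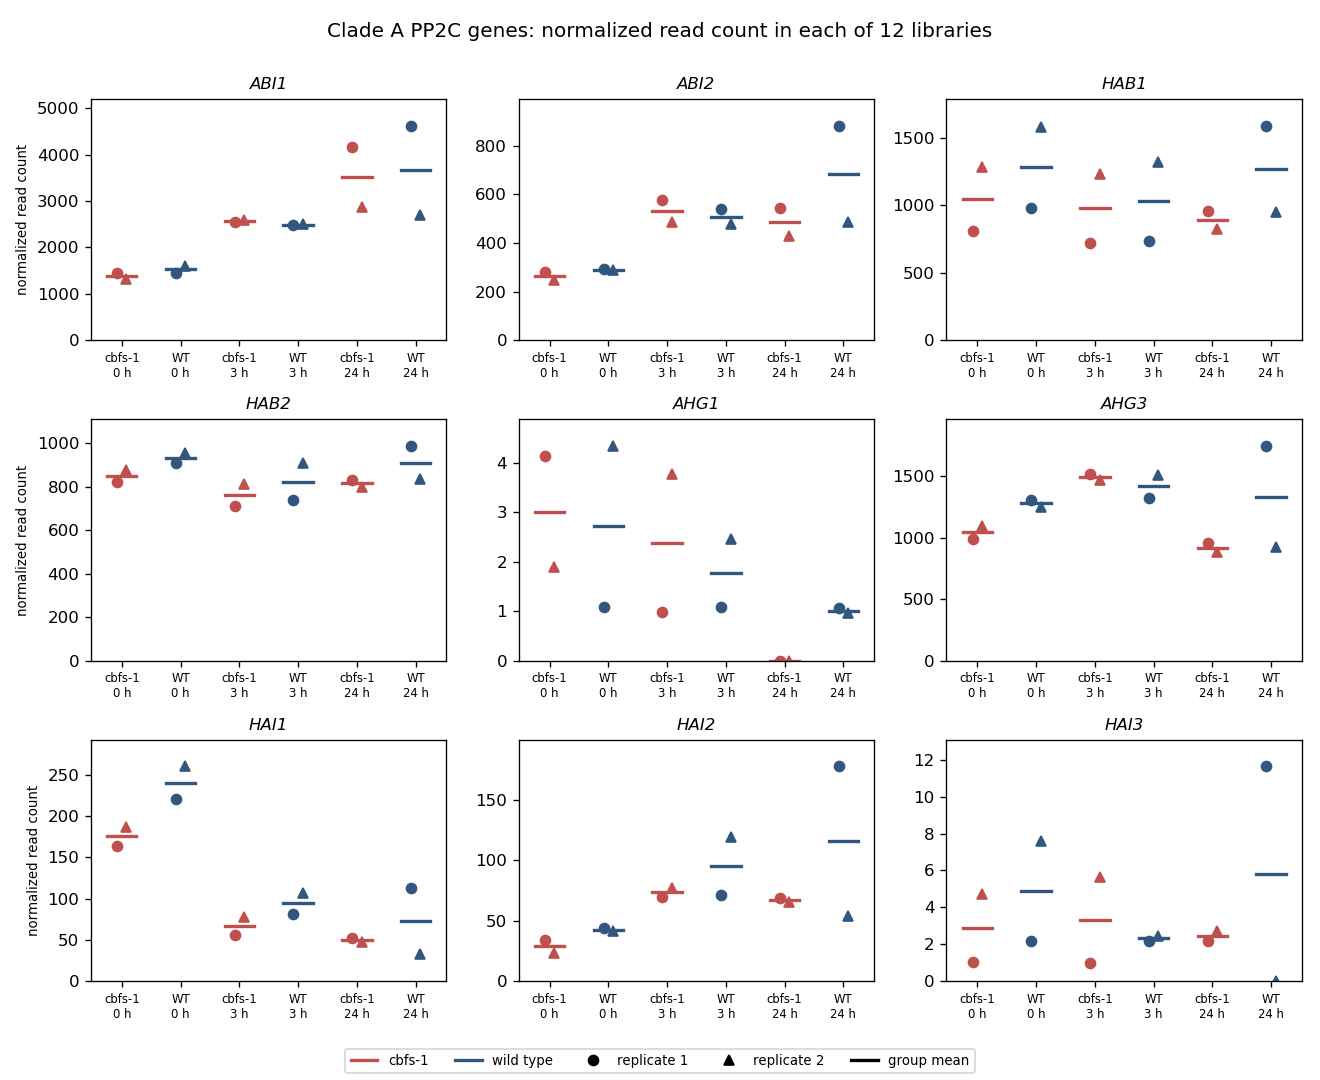
Normalized read count (vertical axis, each panel from 0 on its own scale) of the 9 genes in cbfs-1 and wild type (WT) at 0 h, 3 h and 24 h of cold; circles are replicate 1, triangles replicate 2 and bars the mean of 2 libraries. ABI1 and ABI2 lie higher in the cold groups than at 0 h, HAI1 lies lower, and the 2 wild type libraries at 24 h stand apart for most genes.

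ABI1, the phosphatase gene in which the classic dominant insensitive allele was found, was the most abundant member and was higher in the cold in both genotypes. In cbfs-1 its normalized counts were 1448 and 1321 before cold, 2555 and 2591 after 3 h and 4162 and 2871 after 24 h. In wild type they were 1460 and 1610 before cold, 2480 and 2498 after 3 h and 4622 and 2700 after 24 h. Every cold library lay above every 0 h library, while the 24 h replicates differed from each other by more than the 3 h replicates did. ABI1 overlaps the oppositely oriented gene MEK1 (AT4G26070) by 22 bases in the annotation, and MEK1 stood at 83.8 to 226, far below ABI1.

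ABI2, the closest homologue of ABI1, was also higher in the cold than at 0 h, at a lower level. Its counts in cbfs-1 were 281 and 248 before cold, 575 and 487 after 3 h and 542 and 429 after 24 h. In wild type they were 293 and 288 before cold, 539 and 477 after 3 h and 882 and 484 after 24 h. No cold library reached down to the 0 h libraries. In cbfs-1 the 24 h values overlapped the 3 h values, whereas both ABI1 values at 24 h lay above those at 3 h. Across the 12 libraries the log2 levels of ABI1 and ABI2 had a Pearson correlation of 0.93, given as a description of points that share size factors and groups.

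HAI1, a phosphatase gene induced by abscisic acid and by water deficit, moved the other way. It stood at 164 and 187 in cbfs-1 at 0 h, 56.1 and 77.3 after 3 h and 52.8 and 47.1 after 24 h. In wild type it stood at 221 and 260 before cold, 82.0 and 107 after 3 h and 113 and 33.1 after 24 h. All 8 cold libraries lay below all 4 libraries at 0 h.

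HAI2, its close homologue, had higher values in the cold. The counts were 34.1 and 23.7 in cbfs-1 at 0 h, 69.9 and 77.3 after 3 h and 69.0 and 65.2 after 24 h. In wild type they were 43.7 and 41.2 before cold, 71.1 and 120 after 3 h and 178 and 53.6 after 24 h. The lowest cold value, 53.6, lay above the highest 0 h value, 43.7. The ratio of the HAI1 value to the HAI2 value, not adjusted for length, therefore differed between times. It was 4.82 and 7.92 in cbfs-1 and 5.05 and 6.32 in wild type at 0 h, and between 0.618 and 1.15 in the 8 cold libraries.

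AHG3, also named PP2CA and one of the strongest brakes on the pathway in seeds and guard cells, had its highest cbfs-1 values at 3 h. The difference of 3 h from 0 h in cbfs-1 did not pass the test. Its counts in cbfs-1 were 990 and 1093 before cold, 1513 and 1464 after 3 h and 957 and 880 after 24 h. In wild type they were 1308 and 1246 before cold, 1323 and 1509 after 3 h and 1743 and 921 after 24 h. The wild type 24 h libraries lay on either side of all other wild type values, so the wild type mean at 24 h, 1332 ± 581 (SD, n = 2), describes neither library.

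HAB1 and HAB2, a homologous pair that acts in parallel with ABI1, showed no difference between times that passed the test. HAB1 ranged from 723 to 1589 and followed the replicate number before 24 h. In replicate 1 it stood at 812 in cbfs-1 and 983 in wild type before cold, and at 723 in cbfs-1 and 738 in wild type after 3 h. In replicate 2 the values were 1282 in cbfs-1 and 1579 in wild type before cold, and 1233 in cbfs-1 and 1319 in wild type after 3 h. At 24 h HAB1 had 955 and 825 in cbfs-1 and 1589 and 951 in wild type, with the higher value in replicate 1 of each genotype.

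The same libraries differed in clock genes. CCA1 in replicate 1 was 1.13 to 1.59 lower on the log2 scale than in replicate 2 in the 4 groups at 0 h and 3 h, and HAB1 was 0.66 to 0.84 lower. LHY was lower in replicate 1 as well. PRR7 was higher there by 0.68 to 1.00 and GI by 0.42 to 1.20, PRR5 and LUX were also higher, and PRR9, TOC1 and ELF4 went both ways. With the replicate number as a block, HAB1 at 3 h against 0 h had a limma adjusted p of 0.867 in cbfs-1 and 0.562 in wild type. Within replicate 1 the HAB1 difference of 3 h from 0 h was -0.17 in cbfs-1 and -0.41 in wild type, and within replicate 2 it was -0.06 in cbfs-1 and -0.26 in wild type, all on the log2(value + 1) scale. HAB2 was the steadiest tested member, at 712 to 988 over the 12 libraries.

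The comparison of cbfs-1 seedlings at 3 h with those at 0 h asked which genes responded early in the mutant. ABI1 rose (log2 change 0.89, SE 0.23, limma adjusted p = 0.0408) and ABI2 rose (1.00, SE 0.24, adjusted p = 0.0307), where changes are on the log2(value + 1) scale and p-values are adjusted over all 20666 tested genes by the Benjamini-Hochberg method. Of the 7 tested members 2 were called, against 8.85% of all tested genes: 2 were higher, against 6.43%, and 0 were lower, against 2.41%. The remaining 5 did not pass, with HAI1 at -1.40 (adjusted p = 0.0883), HAI2 at 1.34 (adjusted p = 0.118) and AHG3 at 0.52 (adjusted p = 0.224). The median change of the 7 was 0.52, against -0.02 over all tested genes.

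Both calls at 3 h in cbfs-1 rested on every library of that contrast. Without any 1 of the 4 libraries compared, 0 members passed, with limma adjusted p between 0.112 and 0.197 for ABI1 and between 0.0640 and 0.198 for ABI2. The changes themselves stayed between 0.83 and 0.96 for ABI1 and between 0.88 and 1.12 for ABI2. ABI1 alone also missed the threshold without any 1 of the 4 wild type libraries at 0 h or 3 h, which leaves 1 member called (adjusted p 0.0525 to 0.0536).

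In wild type at 3 h the same genes had changes in the same directions, and limma called 0 of 7 members, against 10.1% of all tested genes. The limma changes were 0.70 for ABI1 (adjusted p = 0.0917), 0.80 for ABI2 (adjusted p = 0.0655), -1.34 for HAI1 (adjusted p = 0.0935) and 1.10 for HAI2 (adjusted p = 0.187). edgeR called 0 and DESeq2 called 3, ABI1, ABI2 and HAI1, against 10.4% of all tested genes called by DESeq2. With the replicate number as a block, since replicates of the same number deviated together at 0 h and 3 h, ABI1 (adjusted p = 0.0389) and ABI2 (adjusted p = 0.0101) passed, and the share of all tested genes called was 16.7%. The median of the 7 changes was 0.15, against -0.02 over all tested genes.

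The spread of the wild type libraries at 24 h enters these tests, since all groups share 1 estimate of the spread. Without wild type 24 h replicate 1, 5 members passed at 3 h in cbfs-1, against 8.11% of all tested genes, and 4 in wild type, against 9.54%. The same numbers passed without wild type 24 h replicate 2 in place of replicate 1, against 8.12% of genes in cbfs-1 and 9.53% in wild type. HAI1 then had limma adjusted p-values of 0.00481 and 0.00463 in cbfs-1 and of 0.00517 and 0.00498 in wild type, without replicate 1 and without replicate 2.

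**Figure D2:**
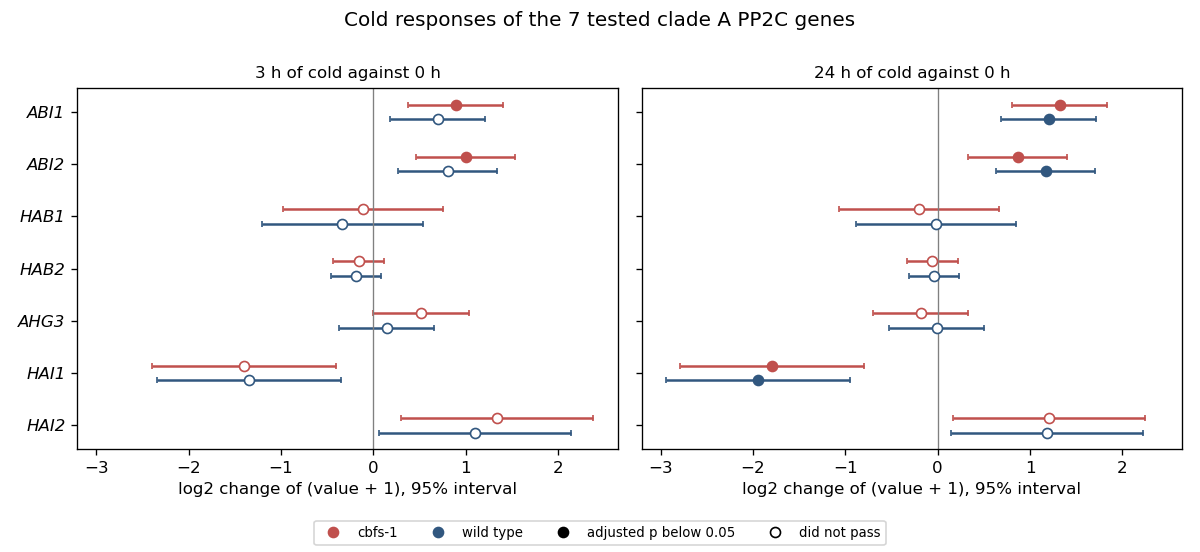
Log2 change of (value + 1) with its 95% interval from limma (horizontal axis) for the 7 tested genes (rows), at 3 h (left) and 24 h (right) against 0 h, in cbfs-1 and wild type; filled points passed an adjusted p of 0.05. ABI1 and ABI2 lie right of 0, as does HAI2, which did not pass, and HAI1 lies left of 0. The intervals of HAB1 and HAB2 lie across 0, as do those of AHG3 except in cbfs-1 at 3 h (0.0014 to 1.03).

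After 24 h of cold ABI1 and ABI2 rose and HAI1 fell in both genotypes. In cbfs-1 the changes were 1.32 for ABI1 (SE 0.23, limma adjusted p = 0.00147), 0.87 for ABI2 (SE 0.24, adjusted p = 0.0144) and -1.80 for HAI1 (SE 0.44, adjusted p = 0.00876). In wild type they were 1.20 for ABI1 (SE 0.23, adjusted p = 0.00222), 1.17 for ABI2 (SE 0.24, adjusted p = 0.00321) and -1.95 for HAI1 (SE 0.44, adjusted p = 0.00561). In cbfs-1 2 of 7 members were higher and 1 lower, against 24.9% and 23.3% of all tested genes, and in wild type 2 were higher and 1 lower, against 25.7% and 24.3%. The members' share called, 3 of 7, was thus close to the 48.2% of tested genes called in cbfs-1 and the 50.0% called in wild type. Markers of other tissues moved at the same time, and their part in the result was not tested. Both root markers, CASP1 and LRX1, fell at 24 h in both genotypes, with sums of 440 to 519 in cbfs-1 and 388 to 474 in wild type, against 798 to 809 in cbfs-1 and 815 to 855 in wild type at 0 h. Of 3 guard cell markers MYB60 and SLAC1 rose and KAT1 fell in both genotypes, and their sum was 661 to 748 in cbfs-1 and 807 to 830 in wild type at 24 h, against 673 to 734 in cbfs-1 and 644 to 806 in wild type at 0 h. In whole seedlings fewer cells of a type and less RNA per cell cannot be told apart.

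HAI2 stood at 1.21 in cbfs-1 (95% interval 0.17 to 2.25, adjusted p = 0.0552) and at 1.19 in wild type (0.14 to 2.23, adjusted p = 0.0576) at 24 h, on the log2 scale, and did not pass. HAB1, HAB2 and AHG3 lay between -0.20 and -0.06 in cbfs-1 and between -0.04 and -0.01 in wild type. The medians of the 7 changes were -0.06 in cbfs-1 and -0.01 in wild type, and those of all tested genes were within 0.01 of 0.

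The sizes of the wild type changes at 24 h depended on which of its 2 libraries was used. Without wild type 24 h replicate 1, HAI1 changed by -2.82 and ABI2 by 0.74. Without replicate 2, HAI1 changed by -1.08 and ABI2 by 1.60. Each of these fits leaves 1 wild type library at 24 h, judged by the spread of the other groups. Only the sizes are therefore given for the wild type changes. AHG3 was lower without replicate 1 (-0.47) and higher without replicate 2 (0.45). HAI2 changed by 0.33 without replicate 1 and by 2.04 without replicate 2. In cbfs-1 ABI2 missed the threshold without cbfs-1 24 h replicate 1 (adjusted p = 0.102) or without cbfs-1 0 h replicate 2 (adjusted p = 0.0732), and the ABI1 and HAI1 calls stood whichever of the 12 libraries was left out. HAI2 passed in cbfs-1 without wild type 24 h replicate 1 (adjusted p = 0.00668) or replicate 2 (adjusted p = 0.00640).

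Between 24 h and 3 h in cbfs-1, AHG3 fell (-0.70, SE 0.23, limma adjusted p = 0.0347) and was the single member called of 7, against 42.6% of all tested genes. The call was lost without any 1 of the 4 cbfs-1 libraries at 3 h or 24 h (adjusted p 0.0913 to 0.142), which leaves 0 called. In wild type limma called 0 of 7 between 24 h and 3 h, against 42.8% of all tested genes, with 0 at an unadjusted p below 0.05 and 0 in edgeR and DESeq2. AHG3 there changed by -0.16 (95% interval -0.67 to 0.36). Without wild type 24 h replicate 1, AHG3 (-0.62) and HAI1 (-1.47) were lower at 24 h than at 3 h. Without wild type 24 h replicate 2, ABI1 (0.89) and ABI2 (0.80) were higher. Both fits leave 1 wild type library at 24 h, so only the sizes are given.

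The comparison of cbfs-1 with wild type asked which genes differed between the genotypes at each time. limma called 0 of 7 members at 0 h, at 3 h and at 24 h, against 0.0387%, 0.0290% and 0.808% of all tested genes, with 0 at an unadjusted p below 0.05 and 0 in edgeR and DESeq2 at each time. Before cold HAI1 averaged 176 ± 16.2 in cbfs-1 and 241 ± 28.1 in wild type, and after 3 h it averaged 66.7 ± 15.0 in cbfs-1 and 94.6 ± 17.8 in wild type (SD, n = 2 each). The HAI1 values of the genotypes did not overlap at either time, and the log2 differences were -0.45 (95% interval -1.44 to 0.55) at 0 h and -0.50 (-1.50 to 0.49) at 3 h, both with an adjusted p of 1.00. At 24 h HAI1 stood between both wild type libraries in cbfs-1 (-0.30, interval -1.29 to 0.70).

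Before cold the members leaned the same way. All 7 tested members were lower in cbfs-1 than in the wild type library of the same number in both pairs, as were 30.0% of all tested genes. For 6 of the 7, HAB1 excepted, both cbfs-1 libraries lay below both wild type libraries, against 13.5% of all tested genes, and the median log2 difference was -0.29. The members share these 4 libraries and are not independent of each other, and none of the 7 differences passed singly. At 3 h 1 member, HAI1, was lower without overlap, against 12.3% of genes, and 1, ABI1, was higher without overlap, against 13.1%. At 24 h 1 member, HAB2, was lower without overlap, against 21.3%, and 0 were higher, against 22.0%.

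For the 2 genes that rose, the intervals at 24 h bound how far the genotypes could differ. ABI1 differed by -0.03 (95% interval -0.55 to 0.48) and ABI2 by -0.44 (-0.97 to 0.10) on the log2 scale, cbfs-1 minus wild type. AHG3 differed by -0.47 (-0.98 to 0.05), and without wild type 24 h replicate 2 the difference was -0.93. These intervals include differences of nearly a halving for ABI2 and AHG3, so the tests do not show that the genotypes were alike.

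The difference between the genotypes' cold responses was tested directly. limma called 0 of 7 members for the 3 h response, against 0.00484% of all tested genes, and 0 for the 24 h response, against 0.00968%, with 0 at an unadjusted p below 0.05 and 0 in edgeR and DESeq2. At 24 h the response of cbfs-1 minus that of wild type was 0.12 for ABI1 (95% interval -0.61 to 0.84), -0.30 for ABI2 (-1.06 to 0.45) and 0.15 for HAI1 (-1.26 to 1.56).

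**Figure D3:**
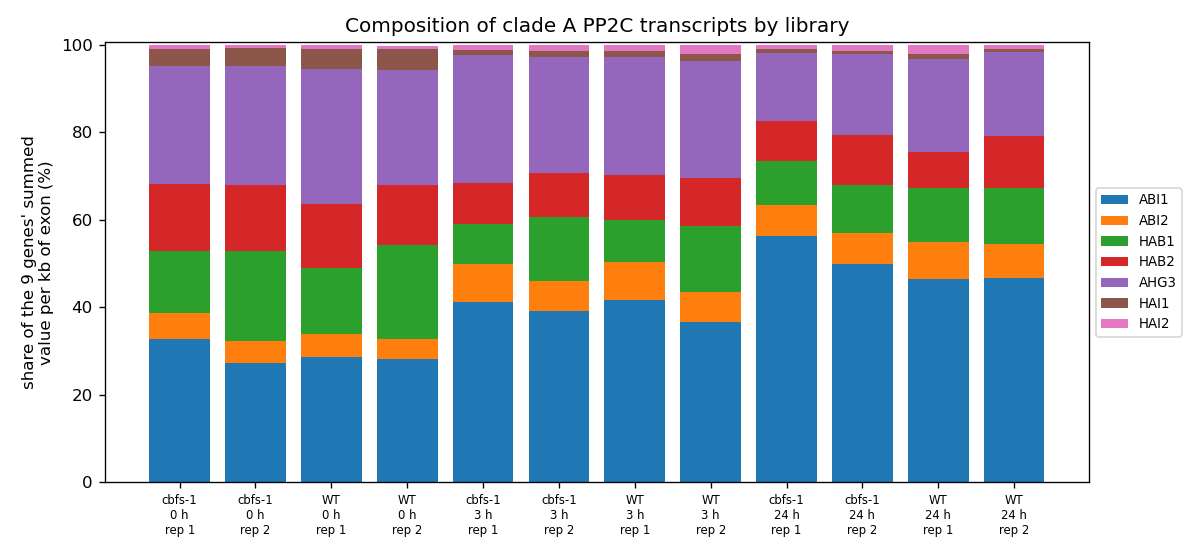
Share (%) of the summed per-kilobase value of the 9 genes taken by each tested gene (stacked bars from 0) in each library, cbfs-1 and wild type (WT) side by side at each time; AHG1 and HAI3, each under 0.2%, are not drawn. ABI1 takes 27.4% to 32.7% of the sum at 0 h and 46.5% to 56.3% at 24 h.

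The make-up of the family shifted towards ABI1 in the cold. On the per-length scale ABI1 took 27.4% to 32.7% of the family's sum in cbfs-1 and 28.1% to 28.6% in wild type at 0 h. At 3 h it took 39.1% to 41.1% in cbfs-1 and 36.8% to 41.8% in wild type, and at 24 h 49.8% to 56.3% in cbfs-1 and 46.5% to 46.6% in wild type. Both wild type libraries at 24 h gave nearly the same share although their summed values, not adjusted for length, were 10128 and 5980. HAI1 took 3.86% to 4.73% at 0 h and 0.596% to 1.18% at 24 h over both genotypes. AHG3 took 26.2% to 30.8% at 0 h and 15.6% to 21.1% at 24 h.

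The 24 h wild type libraries also stood apart in other abscisic acid genes. RD29B, a dehydration marker, stood at 36.6 and 32.6 in cbfs-1 at 24 h, against 913 in wild type replicate 1 and 179 in wild type replicate 2. The stress NAC factor gene RD26 stood at 205 and 182 in cbfs-1 against 905 and 284 in wild type. NCED3, which encodes a key enzyme of abscisic acid synthesis, stood at 208 and 195 in cbfs-1 against 477 and 208 in wild type. RD29B also differed between the wild type replicates before 24 h, by 1.88 at 0 h and 1.97 at 3 h against 2.34 at 24 h on the log2 scale, whereas the gap was -0.13, 0.08 and 1.67 for RD26 and 0.42, -0.30 and 1.20 for NCED3. All 7 tested phosphatase genes were higher in replicate 1 than in replicate 2 at 24 h in both genotypes, by 0.05 to 0.54 on the log2 scale in cbfs-1 and by 0.24 (HAB2) to 1.74 (HAI1) in wild type. Over all 20666 tested genes the median gap was 0.01 in wild type at 24 h, and 2.69% of genes differed by at least 1. That share was 3.51% at 0 h and 3.38% at 3 h in wild type. In cbfs-1 it was 2.97% at 0 h, 2.62% at 3 h and 2.11% at 24 h. Over all genes the wild type pair at 24 h was thus not the furthest apart. The labels give no batch for these libraries, and the part of this difference in the 24 h results was not tested beyond leaving each library out.

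**Figure D4:**
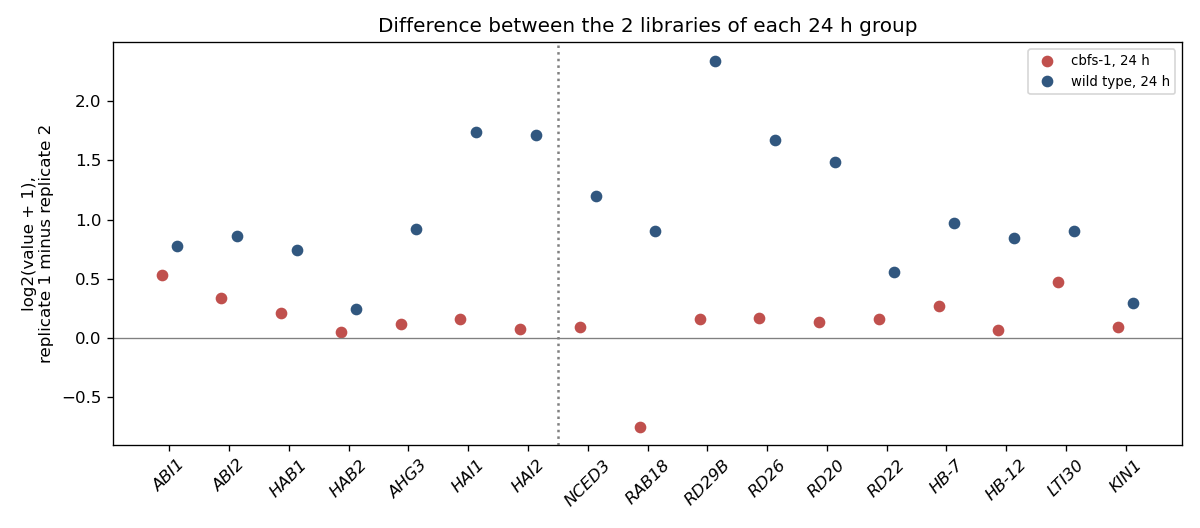
Difference in log2(value + 1) between replicate 1 and replicate 2 at 24 h (vertical axis) in cbfs-1 and wild type, for the 7 tested phosphatase genes (left of the dotted line) and NCED3 with the 9 tested members of the list of abscisic acid induced genes (right). Gaps of the phosphatase genes run from 0.05 to 0.54 in cbfs-1 and from 0.24 to 1.74 in wild type.

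Upstream of the phosphatases, transcripts of the PYR/PYL receptors, which inhibit clade A PP2Cs when they bind the hormone, fell in part after 24 h. Of 14 receptor genes 10 were tested. In cbfs-1 7 fell, against 23.3% of all tested genes, 1 rose and 2 did not pass at 24 h (median -0.62), and in wild type 5 fell, against 24.3%, 1 rose and 4 did not pass (median -0.62). PYR1 fell by 1.28 (SE 0.17) in cbfs-1 and by 1.42 (SE 0.17) in wild type, and PYL7 fell by 1.40 (SE 0.16) in cbfs-1 and by 1.09 (SE 0.16) in wild type. PYL4 fell by 1.19 (SE 0.29) in cbfs-1, and PYL5 fell by 1.12 (SE 0.20) in wild type. The 1 receptor gene that rose, PYL12, was low, at 10.8 and 19.0 in cbfs-1 and 28.6 and 23.4 in wild type at 24 h. At 3 h PYL6 rose in both genotypes (1.41 in cbfs-1, SE 0.33, and 1.48 in wild type, SE 0.33). PYL12 was also called higher at 3 h in cbfs-1, at 8.86 and 4.71 against 0 and 0.947 at 0 h. These 0 h values lay below the floor of 3 reads, so no fold is given for PYL12. Its values reached 10, the minimum for testing, at 24 h only. Thus 2 of 10 receptor genes were called at 3 h in cbfs-1, against 8.85% of all tested genes, and 1 of 10 in wild type, against 10.1%.

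Downstream, the SnRK2 family of kinases was divided. Its members OST1, SNRK2.2 and SNRK2.3 are the abscisic acid activated kinases that clade A PP2Cs hold inactive, and other members act in osmotic stress without need of the hormone. Of 10 tested genes 4 rose, 1 fell and 5 did not pass in cbfs-1 at 24 h (median 0.30), against 48.2% of all tested genes called, and 6 rose, 1 fell and 3 did not pass in wild type (median 0.65), against 50.0%. OST1, the guard cell kinase of stomatal closure, rose by 0.45 (SE 0.12) in cbfs-1 and by 0.91 (SE 0.12) in wild type, and SNRK2.2 rose by 0.76 (SE 0.24) in cbfs-1 and by 0.86 (SE 0.24) in wild type. SNRK2.3 did not pass, at -0.75 (SE 0.43) in cbfs-1 and -0.44 (SE 0.43) in wild type. SNRK2.9 rose by 1.45 (SE 0.43) in cbfs-1 and by 1.53 (SE 0.43) in wild type, and SNRK2.7 (1.28, SE 0.23) and SNRK2.8 (1.04, SE 0.35) rose in wild type. SNRK2.5 fell by 1.73 (SE 0.24) in cbfs-1 and by 1.88 (SE 0.24) in wild type. At 3 h 1 kinase gene, SNRK2.9, rose in cbfs-1 (1.71, SE 0.43), against 8.85% of all tested genes called. The 10 kinase genes did not pass in wild type at 3 h, against 10.1% called.

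Of the 5 genes for ABF and ABI5 factors, the transcription factors that the kinases activate, 2 rose and 1 fell at 24 h in each genotype, against 48.2% of all tested genes called in cbfs-1 and 50.0% in wild type. ABF1 rose by 4.42 (SE 0.56) in cbfs-1 and by 4.63 (SE 0.56) in wild type, and ABI5 by 2.83 (SE 0.46) in cbfs-1 and by 3.17 (SE 0.46) in wild type. ABF3 fell by 0.94 (SE 0.30) in cbfs-1 and by 1.02 (SE 0.30) in wild type. At 3 h ABF1 alone rose, by 5.04 in cbfs-1 and 4.90 in wild type (SE 0.56 each). The share of all tested genes called at 3 h was 8.85% in cbfs-1 and 10.1% in wild type.

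Among 11 genes of abscisic acid metabolism, 2 rose and 3 fell in cbfs-1 at 24 h, and 3 rose and 2 fell in wild type, shares close to the 48.2% and 50.0% of all tested genes called. CYP707A1, whose product breaks the hormone down, rose in both, to 833 and 624 in cbfs-1 against 126 and 83.3 at 0 h, and to 1156 and 828 in wild type against 137 and 112 at 0 h. The synthesis gene ABA2 fell by 0.89 (SE 0.17) in cbfs-1 and by 0.84 (SE 0.17) in wild type. ABA3, which acts in the last step of synthesis, rose by 0.47 (SE 0.12) in cbfs-1 and by 0.58 (SE 0.12) in wild type, AAO3, the aldehyde oxidase gene of that step, fell by 0.60 (SE 0.14) in cbfs-1, and CYP707A4 rose by 1.42 (SE 0.28) in wild type. At 3 h 3 rose and 1 fell in cbfs-1, against 8.85% of all tested genes called, and 3 rose and 0 fell in wild type, against 10.1%. CYP707A3, another breakdown enzyme gene, rose at 3 h by 5.37 (SE 0.41) in cbfs-1 and by 5.09 (SE 0.41) in wild type. CYP707A1 rose by 2.37 (SE 0.26) in cbfs-1 and by 2.02 (SE 0.26) in wild type at 3 h. In cbfs-1 ABA2 fell (-0.65, SE 0.17) and the synthesis gene NCED5 was called higher, and in wild type CYP707A2 rose (1.24, SE 0.30). No fold is given for NCED5, whose cbfs-1 libraries at 0 h lay below the floor of 3 reads.

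Of 9 tested abscisic acid induced genes, 3 rose and 1 fell in cbfs-1 at 24 h, against 48.2% of all tested genes called, and 2 rose and 0 fell in wild type, against 50.0%. The members that rose in both were LTI30 (3.65, SE 0.27, in cbfs-1 and 5.85, SE 0.27, in wild type) and KIN1 (2.54, SE 0.16, in cbfs-1 and 3.92, SE 0.16, in wild type), which are also known targets of CBF factors. RD22 rose (0.65, SE 0.17) and RD20 fell (-1.86, SE 0.47) in cbfs-1, and RAB18 and RD29B did not pass in either genotype. Relative to wild type at 24 h, cbfs-1 was lower in LTI30 (-3.34) and KIN1 (-2.97), and the other 7 did not pass. Of all tested genes 0.808% were called between the genotypes at 24 h, 0.0387% at 0 h and 0.0290% at 3 h. KIN1 was already lower in cbfs-1 at 0 h (-1.59, adjusted p = 0.00785) and at 3 h (-1.86, adjusted p = 0.00473), and LTI30 stood at -1.15 (adjusted p = 0.886) at 0 h and -1.62 (adjusted p = 0.167) at 3 h. The difference between the 24 h responses, cbfs-1 minus wild type, did not pass for LTI30 (-2.20, limma adjusted p = 0.141) or KIN1 (-1.38, adjusted p = 0.113). At 3 h LTI30 rose by 1.86 (SE 0.27) in cbfs-1 and by 2.33 (SE 0.27) in wild type, and KIN1 rose in wild type (0.69, SE 0.16). The share of all tested genes called at 3 h was 8.85% in cbfs-1 and 10.1% in wild type.

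PP2C genes outside clade A were taken as a comparison. Of 10 tested, 2 rose and 1 fell in cbfs-1 at 24 h, below the 48.2% of all tested genes called. In wild type 1 rose and 3 fell at 24 h, below the 50.0% called. PP2C5 rose by 1.73 (SE 0.33) in cbfs-1 and by 1.40 (SE 0.33) in wild type, and APD7, of clade D, fell by 1.34 (SE 0.50) in cbfs-1 and by 1.75 (SE 0.50) in wild type. PP2CG1 rose in cbfs-1 (0.41, SE 0.15), and PLL1 (-0.79, SE 0.15) and AP2C1 (-0.58, SE 0.19) fell in wild type. At 3 h the 10 did not pass in either genotype, against 8.85% of all tested genes called in cbfs-1 and 10.1% in wild type. A difference between the clades was not tested.

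Genes with the most similar course over the 12 libraries were found by Pearson correlation of log2 levels among 14984 genes with a mean of at least 100. For ABI1 these were AT3G43230, DGR1 and AT1G72700 (r of 0.97 each), and for ABI2 they were GA2OX6 (0.98), VPS28-1 (0.96) and EXL2 (0.96). HAB1 was nearest to AT1G69252 (0.96), AT5G57610 (0.95) and the sigma factor gene SIGE (0.94), and HAB2 to AT4G17840 (0.94), AT3G25680 (0.92) and AT5G57610 (0.92). AHG3 was nearest to FAB1B, AT3G20300 and AT4G23870 (0.89, 0.89 and 0.88), and HAI1 to TPP2, AT1G24440 and GSL03 (0.95, 0.95 and 0.95). HAI2 was nearest to CHR4 (0.95), SUO (0.95) and NCED3 (0.94). The points share groups, size factors and the wild type 24 h libraries that stand apart.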

How the data were processed

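RNA sequencing reads of 12 seedling libraries were counted per gene by the authors, and the deposited signal values are those counts divided by 1 DESeq2 size factor per library, as the table's name and values show. The submitters' processing notes name HTSeq 0.6.0, TopHat2 2.1.0, DESeq2, Cufflinks 2.2.1 and the build TAIR10. Settings, strand handling and the role of each are not given in the sources here. Whole reads were recovered from the steps of each column (100% of values within 0.001 of a read).

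The main test was limma 3.58.1 with a trend (R 4.3.3), run on log2(value + 1) where 2 or more libraries reached 10, with 6 group means over all 12 libraries and Benjamini-Hochberg adjustment within each of 11 contrasts, called below 0.05. Groups and replicate numbers came from the sample titles. Deviations of same-numbered libraries correlated at 0.334 to 0.565 between the 0 h and 3 h groups, so the numbers were taken to pair these groups, from the data and not the labels. With 24 h groups set against 0 h or 3 h they correlated at 0.0428 to 0.108, and between both 24 h groups at 0.242. Alternatives were edgeR 4.0.16 and DESeq2 1.42.0 on recovered reads, a replicate block, a pseudocount of 8, no filter, the compared libraries alone, and leaving out each library. The tests were tried on simulated data, and no result given here rests on that trial. RefSeq TAIR10.1 gave names, exon lengths and promoters (Biopython 1.88, Python 3.11.15).

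The 9 members and the gene lists were chosen with earlier results of these data known. All 9 members are named. List genes are named when called, up to 4 per list and contrast by size, and RD29B, RD26, NCED3, RAB18, CCA1, PRR7, GI, MEK1 and SNRK2.3 were chosen after their values were seen. All 9 clock genes of the list are named. The 3 most similar genes are given per tested member.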

Additional observations from a re-analysis of the deposited data

How the results depend on the processing

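The counts of called members were the same as reported for the 11 contrasts with a pseudocount of 8 and with no filter. In wild type at 3 h against 0 h, where 0 were called, 2 passed with the replicate block (16.7% of all genes), 3 with DESeq2 (10.4%) and 3 with the compared libraries alone (3.82%). In cbfs-1 at 3 h the compared libraries alone gave 4 in place of 2 (4.81% of all genes), and DESeq2 gave 3 (9.54%). Adding the replicate number as a block also called HAI2 at 24 h in wild type (adjusted p = 0.0470) and in cbfs-1 (adjusted p = 0.0449), where the numbers do not pair the libraries, and changed no call besides these and the ABI1 and ABI2 calls at 3 h. HAI2 at 24 h also passed with edgeR in wild type (adjusted p = 0.0356) and with DESeq2 in wild type (adjusted p = 0.0111) and cbfs-1 (adjusted p = 0.0420), and with the compared libraries alone in cbfs-1 (adjusted p = 0.00854). A fit without 1 library leaves its group with 1, so the leave-out counts that follow draw on the spread of the other groups alone. Leaving out 1 library at a time gave 0 to 5 called members in cbfs-1 and 0 to 4 in wild type at 3 h, 2 to 4 in cbfs-1 and 3 to 5 in wild type at 24 h, and 0 to 1 in cbfs-1 and 0 to 2 in wild type for 24 h against 3 h. For cbfs-1 against wild type it gave 0 to 1 at 24 h. The contrasts of genotypes at 0 h and 3 h and of the responses had 0 called members under every alternative run.

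AHG3 at 24 h in wild type turned from -0.01 to 0.050 with edgeR and 0.057 with DESeq2, and the genotype difference in the 24 h response of HAI1 turned from 0.15 to -0.10 with edgeR and -0.095 with DESeq2. Among the changes printed above, signs also turned when 1 library was left out, in these ranges of the log2 change. HAB1 ran from -0.75 to 0.082 (wild type, 3 h), -0.39 to 0.35 (wild type, 24 h), -0.50 to 0.27 (cbfs-1, 3 h) and -0.53 to 0.13 (cbfs-1, 24 h). HAB2 ran from -0.16 to 0.082 and AHG3 from -0.47 to 0.45 in wild type at 24 h, and for 24 h against 3 h in wild type AHG3 ran from -0.62 to 0.30, HAI1 from -1.47 to 0.27 and ABI2 from -0.066 to 0.80. For cbfs-1 against wild type at 24 h, ABI1 ran from -0.42 to 0.36 and HAI1 from -1.17 to 0.58. The genotype difference in the 24 h response ran from -0.27 to 0.50 for ABI1, -0.73 to 0.13 for ABI2 and -0.72 to 1.02 for HAI1. Signs turned as well for changes not printed above, among them those of HAI2. For 24 h against 3 h in wild type HAI2 ran from -0.77 to 0.94. For cbfs-1 against wild type at 24 h HAI2 ran from -1.39 to 0.32, and its genotype difference in the 24 h response from -0.83 to 0.88. The cause of these shifts was not tested. AHG1 and HAI3, at 0 to 11 reads per library, could not be tested.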

Other observations

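The ratio of the ABI1 value to the ABI2 value, not adjusted for length, was 7.68 and 6.69 in cbfs-1 at 24 h, above the 4.45 to 5.60 of the other 10 libraries, those of wild type at 24 h (5.24 and 5.57) included. This ratio was chosen after its values were seen and was not tested.

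HAB1 and HAB2 had a Pearson correlation of 0.87 over the 12 libraries on the log2 scale, and ABI2 and HAI2 one of 0.90, whereas HAI1 and HAI2 had one of -0.38. These are descriptions of libraries that share groups and size factors.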
